A study of Homo sapiens with 24 samples.

Results

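The 10 genes described here belong to the YAP-TEAD branch of the Hippo pathway: the target genes CTGF, CYR61 and ANKRD1, the pathway regulators AMOTL1, AMOTL2, LATS2 and AJUBA, the coactivators YAP1 and WWTR1 (which encodes TAZ), and the DNA-binding factor TEAD1. They were picked by name, because CTGF and CYR61 were higher after MCM7 knock-down in these same libraries, and they are 10 of the 21386 genes in the count files. All 10 were among the 16087 genes that passed the filter on low counts for the comparison of MCM7 knock-down in A375 cells. Since their levels in all A375 groups and in the A549 libraries were in view when they were picked, every value of the 10 genes is given as a description with no test. Tests are given for other genes of the pathway.

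RNA was sequenced from A375, a human melanoma line, and A549, a human lung adenocarcinoma line, to ask which genes respond when MCM7, a subunit of the replicative DNA helicase, is depleted in cells that do not replicate. In each line, cells carrying a doxycycline (Dox)-inducible short hairpin RNA against MCM7 (shMCM7), introduced with a lentiviral vector, and the parental cells without the hairpin received Dox at 1 μg/ml over 72 hours or none (noDox). Every culture, controls included, was held in G1/S by a double thymidine block. This gave 8 groups of 3 biological replicates, 24 libraries in all. The parental cells carry no hairpin and no vector, so an effect of the vector and one of the hairpin before induction cannot be told apart.

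Levels are library-size-scaled counts (CPM) on 1 scale over the 24 libraries, with library sizes adjusted by the trimmed mean of M values. The A375 libraries held 146656792 to 283721575 counts and the A549 libraries 17911338 to 23452823, so the A375 values carry less counting error. In the A375 libraries 7 melanocyte lineage markers summed to 567 to 732 CPM, against 37.3 to 53.9 CPM in A549. Most of the A375 sum was SOX10, at 489 to 666 CPM. MITF did not follow this order, at 26.3 to 44.0 CPM in A375 and 36.0 to 52.7 CPM in A549. In A375 PMEL was at 1.89 to 5.15 CPM, DCT at 0.15 to 0.62 CPM, and the pigment genes MLANA and TYR at 0.01 CPM or below. The 6 epithelial markers summed to 5514 to 7775 CPM in A549 and to 279 to 478 CPM in A375, where KRT18 was at 196 to 362 CPM. Markers of other cell types summed to at most 0.513 CPM in both lines.

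MCM7, the targeted gene, stood at 75.8, 74.6 and 76.2 CPM in the A375 shMCM7 Dox libraries. In the A375 shMCM7 noDox libraries it stood at 129.6, 347 and 354 CPM, so the library labelled replicate 1 held far less MCM7 than the other noDox libraries. The 6 parental A375 libraries held 336 to 363 CPM. In A549 the counts went against the labels: MCM7 was at 97.5 CPM in the library labelled shMCM7 Dox replicate 3, at 100.9 CPM in that labelled shMCM7 noDox replicate 2 and at 90.7 CPM in that labelled parental noDox replicate 2, and at 302 to 344 CPM in the other 9 A549 libraries. The A549 labels were kept as given, and each A549 library is therefore shown on its own below.

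In the Hippo pathway the kinases STK3 and STK4 (MST2 and MST1) activate LATS1 and LATS2, which phosphorylate YAP and TAZ and hold them in the cytoplasm. Free of that phosphorylation, YAP and TAZ enter the nucleus, bind the TEAD factors and switch on genes such as CTGF (also CCN2), CYR61 (also CCN1) and ANKRD1. The motins AMOTL1 and AMOTL2 bind YAP and TAZ, AJUBA restrains LATS activity, and AMOTL2, LATS2 and AJUBA are also targets, so that part of the pathway feeds back on itself. A change in the messenger RNA of a pathway member does not show how much YAP or TAZ is active.

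The TEAD factors read the short motif GGAATG, and the stretches of promoter that hold it are printed because they are the sequence through which these factors are known to act on the target genes. The motif was searched on both strands in the 250 bases before each start in the RefSeq promoter table (GRCh38.p14). Of 35116 promoters 11.9% held at least 1 match, 0.94% held at least 2 and 0.0826% at least 3. Promoters were listed for 8 of the 10 genes, CYR61 and TEAD1 being without an entry, and 5 of the 8 had a promoter with a match. That count is of genes with a match in any listed promoter, whereas the shares above are of single promoters. CTGF had 3 matches, starting 169, 104 and 95 bases before the start, and ANKRD1 had 2, at 220 and 128 bases. YAP1 had 1 match at 162 bases, and AMOTL2 (69 bases) and AJUBA (59 bases) each had 1 in the second of their listed promoters. AMOTL1, LATS2 and WWTR1 had none in these windows. The matches stand in capitals, 5′ to 3′ on the strand of the gene, with the match on the opposite strand in AMOTL2 read as CATTCC. The stretches lie at chr6:131951432-131951571 (minus strand) for CTGF, chr10:90921180-90921337 (minus) for ANKRD1, chr3:134374481-134374546 (minus) for AMOTL2, chr14:22976866-22976931 (minus) for AJUBA and chr11:102110255-102110320 (plus) for YAP1. The stretches of ANKRD1, AMOTL2 and AJUBA overlap the gene spans given below. Those spans come from GENCODE and need not begin at the RefSeq start used here. A match describes the letters only and does not show binding.
CTGF: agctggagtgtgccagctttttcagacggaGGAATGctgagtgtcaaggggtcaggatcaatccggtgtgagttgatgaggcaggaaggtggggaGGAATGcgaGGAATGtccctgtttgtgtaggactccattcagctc
ANKRD1: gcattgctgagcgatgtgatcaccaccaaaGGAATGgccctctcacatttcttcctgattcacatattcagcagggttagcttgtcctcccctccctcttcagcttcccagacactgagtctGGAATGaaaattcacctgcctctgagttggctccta
AMOTL2: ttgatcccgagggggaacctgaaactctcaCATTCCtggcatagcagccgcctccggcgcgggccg
AJUBA: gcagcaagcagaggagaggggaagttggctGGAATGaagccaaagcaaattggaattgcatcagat
YAP1: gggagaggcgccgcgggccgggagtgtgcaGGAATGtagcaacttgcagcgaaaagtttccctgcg

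The hairpin is shown too, since a hairpin can lower genes that share its seed. The 21-base target in MCM7 is printed with the site of the guide's seed (positions 2 to 8 of the guide) in capitals.
MCM7 target: cagaggaggatttCTACGAAa
Among the GENCODE transcripts the full target was found in those of 1 gene, MCM7. The seed site was found in transcripts of 1283 of 21320 genes (6.02%) and, among the 10 genes, in 2: AMOTL2 and AJUBA. The search was for the letters only, and an effect of the hairpin on genes other than MCM7 was not tested.

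The question of the first comparison was how these genes stood in A375 cells with and without induction of the MCM7 hairpin. The secreted matricellular proteins CTGF and CYR61 were the members with the largest increases, TEAD1 and AMOTL2 were higher by less, WWTR1 was lower, and YAP1, AMOTL1 and AJUBA lay within the spread of the noDox libraries or close to it. Over all genes tested 12% were called in this comparison (5.58% higher and 6.45% lower), a call needing a fold of at least 1.5, p under 0.01 and a false discovery rate (FDR) under 0.05. The values of the 10 genes are not read against that share, because the comparison chose them.

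**Figure D1:**
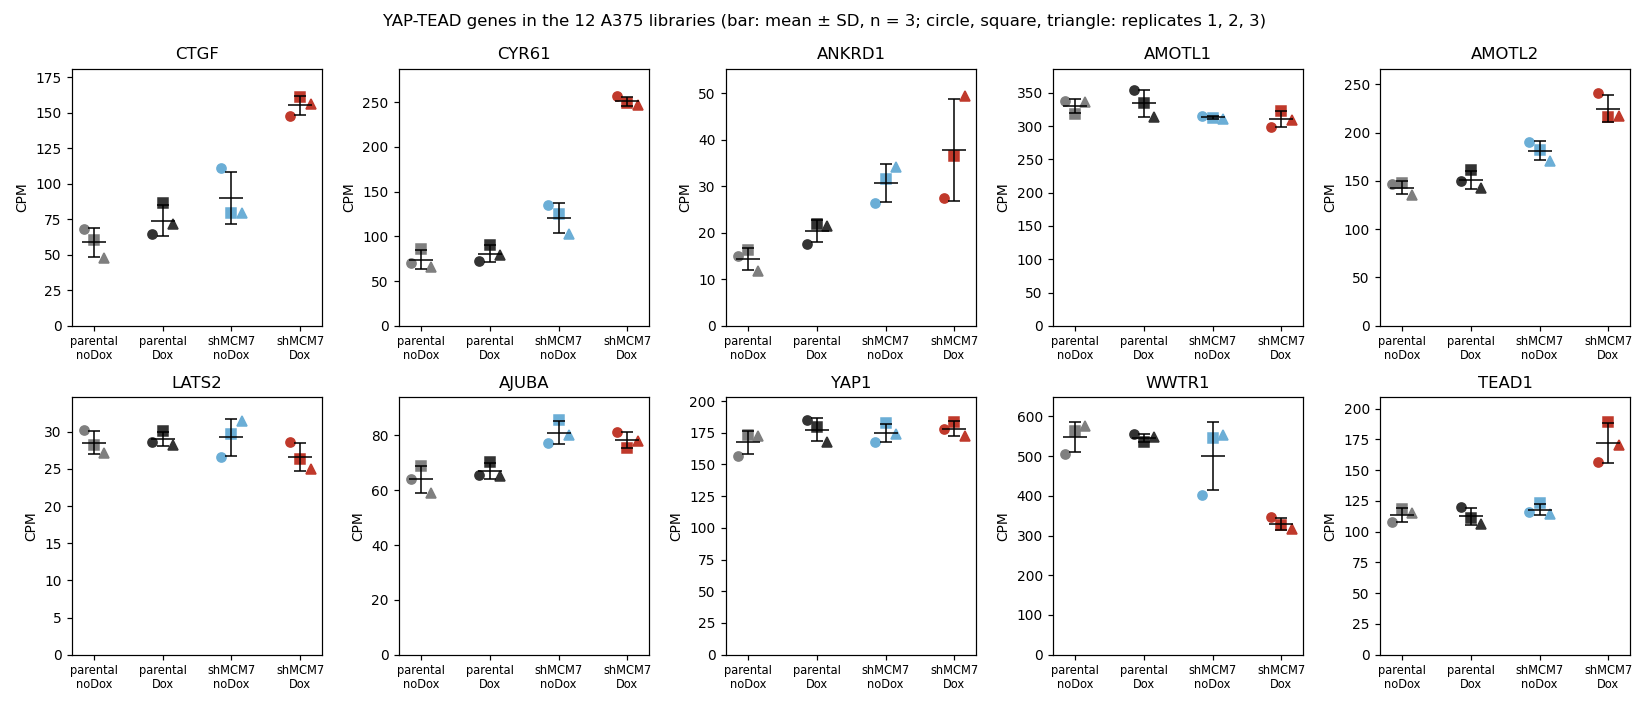
Levels (CPM, linear axis from 0) of the 10 genes in the 12 A375 libraries by group. Points are libraries and the black bars mean ± SD (n = 3). CTGF, CYR61, AMOTL2 and TEAD1 have their highest 3 libraries in the shMCM7 Dox group and WWTR1 its lowest 3. The comparison chose the 10 genes, and the share of all genes that separate in this way was not counted.

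CTGF (ENSG00000118523, GRCh38 chr6:131948176-131951373) was at 147.8, 161.3 and 156.05 CPM in the shMCM7 Dox libraries and at 111.2, 79.2 and 79.3 CPM in the shMCM7 noDox libraries. The 2 groups did not overlap, and the highest noDox value was that of replicate 1, the library low in MCM7. Parental A375 cells held 64.4, 86.0 and 71.7 CPM with Dox and 68.0, 60.6 and 47.5 CPM without it. The fold change between shMCM7 Dox and noDox was 0.79 ± 0.12 (log2, SE), a 1.73-fold difference. Without noDox replicate 1 it was 0.97.

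CYR61 (ENSG00000142871, chr1:85580761-85583962), like CTGF a CCN protein that binds integrins, was at 256.6, 249.4 and 247.0 CPM with Dox and at 134.7, 125.1 and 102.4 CPM without it in shMCM7 cells. All 3 Dox libraries lay above every other A375 library. The parental libraries held 72.1, 90.4 and 79.4 CPM with Dox and 70.2, 86.2 and 65.5 CPM without. The difference in shMCM7 cells was 1.06 ± 0.09 (log2, SE), or 2.08-fold.

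ANKRD1 (ENSG00000148677, chr10:90912096-90921276), a nuclear ankyrin-repeat cofactor, did not follow the same pattern. It was at 27.5, 36.4 and 49.3 CPM in the shMCM7 Dox libraries and at 26.3, 31.5 and 34.2 CPM in the noDox libraries, which overlapped. The difference was 0.30 ± 0.18 (log2, SE) and came to 0.07 without Dox replicate 3 and to 0.49 without Dox replicate 1. Parental cells held 17.6, 21.96 and 21.5 CPM with Dox and 15.1, 16.2 and 11.7 CPM without, all below the 6 libraries of shMCM7 cells.

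AMOTL2 (ENSG00000114019, chr3:134355874-134375479) was at 241.2, 216.2 and 217.2 CPM with Dox and at 190.7, 182.0 and 170.8 CPM without it in shMCM7 cells. The groups did not overlap, and the difference was 0.31 ± 0.06 (log2, SE). Its relative AMOTL1 (ENSG00000166025, chr11:94706431-94876753) was at 298.7, 322.4 and 309.2 CPM with Dox and at 315.8, 312.0 and 311.3 CPM without, a difference of -0.01 ± 0.05. The kinase LATS2 (ENSG00000150457, chr13:20973032-21061547) was at 28.7, 26.3 and 24.9 CPM with Dox and at 26.6, 29.7 and 31.4 CPM without, and the LIM protein AJUBA (ENSG00000129474, chr14:22971174-22982642) was at 81.2, 75.5 and 78.0 CPM with Dox and at 77.4, 85.5 and 80.0 CPM without. Both genes overlapped between the groups, with differences of -0.13 ± 0.08 for LATS2 and -0.05 ± 0.06 for AJUBA.

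The 2 coactivators parted. YAP1 (ENSG00000137693, chr11:102110461-102233423) was at 178.3, 183.8 and 172.3 CPM with Dox and at 167.8, 182.5 and 173.8 CPM without, with a difference of 0.03 ± 0.05 (log2, SE). WWTR1 (ENSG00000018408, chr3:149517235-149736714) was at 345.9, 325.7 and 316.0 CPM with Dox and at 402.5, 546.9 and 553.2 CPM without, with a difference of -0.60 ± 0.11, or -0.74 without noDox replicate 1. The 3 Dox libraries were the lowest of the 12 for WWTR1, and noDox replicate 1, low in MCM7, came next. In parental cells WWTR1 was at 556, 535.5 and 548.5 CPM with Dox and at 506.1, 562.7 and 577.3 CPM without.

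TEAD1 (ENSG00000187079, chr11:12674591-12944483) was at 156.2, 189.3 and 170.5 CPM with Dox and at 115.7, 123.3 and 114.7 CPM without in shMCM7 cells. The groups did not overlap, and the difference was 0.55 ± 0.07 (log2, SE). Unlike for CTGF and WWTR1, noDox replicate 1 was not set apart from the other noDox libraries for TEAD1. In these bulk libraries a lower level from fewer cells holding a transcript and one from less transcript per cell cannot be told apart.

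CTGF, AMOTL1, YAP1 and WWTR1 overlap an annotated antisense gene on the opposite strand (AL133346.1, AP002383.2, AP000942.2 and WWTR1-AS1). None of the 4 has a row in the count files, and whether counting used strand is not given in the sources used here, so reads from the 2 strands cannot be told apart for these genes.

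The second comparison asked how the genes stood with and without Dox in parental A375 cells, which lack the hairpin. ANKRD1 had the largest difference of the 10, 0.51 ± 0.12 (log2, SE), its 3 Dox libraries lying above its 3 noDox libraries. How many of all genes separate in this way was not counted. CTGF followed with 0.34 ± 0.12, its groups overlapping. The other 8 genes lay between -0.02 and 0.13. Of all genes 0% were called in this comparison (0 of 15993 by edgeR, where 1121 genes had p below 0.05 before adjustment, and 2 by DESeq2).

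**Figure D2:**
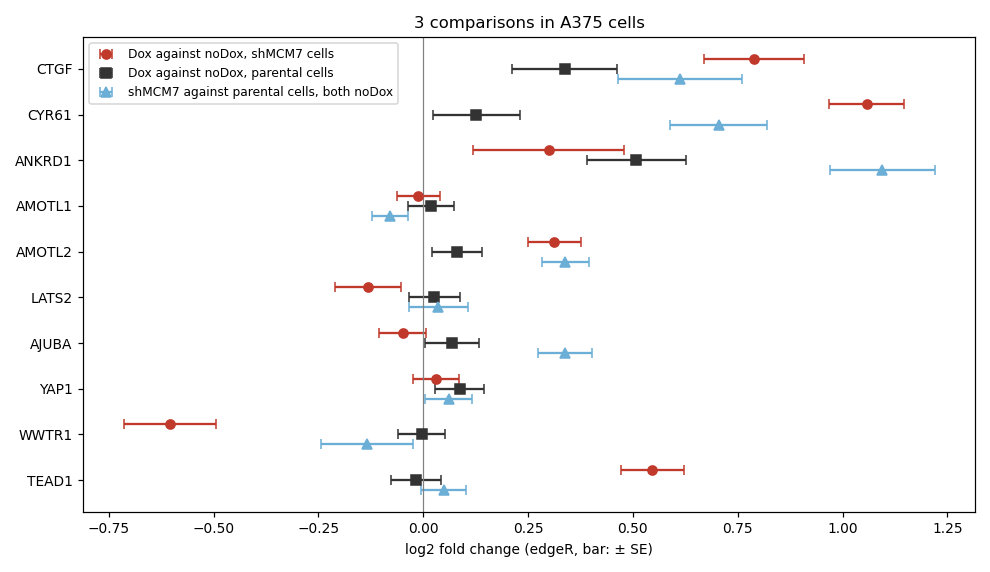
Log2 fold changes (edgeR, bars ± SE) of the 10 genes in A375 for Dox against noDox in shMCM7 cells, Dox against noDox in parental cells, and shMCM7 against parental cells without Dox. CYR61 stands at 1.06, 0.13 and 0.70 and WWTR1 at -0.60, 0.00 and -0.13. The comparison without Dox shares the shMCM7 noDox and the parental noDox libraries with the others.

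The difference between the Dox effect in shMCM7 cells and that in parental cells is given as a description. It was 0.93 ± 0.16 (log2, SE) for CYR61, 0.56 ± 0.10 for TEAD1, 0.45 ± 0.20 for CTGF and -0.60 ± 0.14 for WWTR1. For ANKRD1 it was -0.21 ± 0.25, since the Dox effect in parental cells was the larger one. AMOTL2 stood at 0.23 ± 0.09, and AMOTL1, LATS2, AJUBA and YAP1 between -0.16 and -0.03.

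Before any Dox was given, several of the target genes were already higher in shMCM7 cells than in parental A375 cells. The difference was 1.09 ± 0.12 (log2, SE) for ANKRD1, 0.70 ± 0.12 for CYR61, 0.61 ± 0.15 for CTGF and 0.34 for both AMOTL2 (SE 0.06) and AJUBA (SE 0.06). Every shMCM7 noDox library lay above every parental noDox library for these 5 genes, and the share of all genes that separate in this way was not counted. WWTR1 (-0.13 ± 0.11), TEAD1 (0.05 ± 0.05), YAP1 (0.06 ± 0.05), LATS2 (0.04 ± 0.07) and AMOTL1 (-0.08 ± 0.04) lay near 0. Of all genes 1.65% were called in this comparison (1.17% higher and 0.478% lower). With the replicate number as a block, since same-numbered libraries deviated together, the counts were 335 higher and 149 lower in place of 189 and 77. The 77 lower calls became 39 without parental noDox replicate 2, 40 without parental noDox replicate 3 and 50 without shMCM7 noDox replicate 2. MCM7 itself differed by -0.31 ± 0.29, a value that shMCM7 noDox replicate 1 weighs on. That library was also the highest shMCM7 noDox library for CTGF, at 111.2 CPM against 79.2 and 79.3 CPM. It was the lowest for WWTR1, at 402.5 CPM against 546.9 and 553.2 CPM, and so weighs on both differences.

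Thus ANKRD1 and AJUBA differed between the 2 kinds of cells without Dox more than between Dox and noDox within shMCM7 cells. For AMOTL2 these sizes were close, at 0.34 and 0.31 (log2). TEAD1 and WWTR1 showed the opposite order to ANKRD1 and AJUBA. All are sizes with no test of the difference. CTGF and CYR61 had both steps. Their shMCM7 noDox means, 89.9 ± 18.5 CPM for CTGF and 121 ± 16.6 CPM for CYR61 (SD, n = 3), lay between the parental noDox means of 58.7 ± 10.3 and 74.0 ± 10.9 CPM and the shMCM7 Dox means of 155 ± 6.77 and 251 ± 4.99 CPM.

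Per length of exon, which allows genes to be set side by side, WWTR1 was the most abundant of the coactivators and TEAD factors in A375. In parental noDox cells it had 65.2 ± 4.47 CPM per kb (SD, n = 3), YAP1 26.6 ± 1.43, TEAD4 14.0 ± 0.749 and TEAD1 11.1 ± 0.560. TEAD2 and TEAD3 followed with 6.23 ± 0.605 and 6.04 ± 0.298 and did not differ beyond their spread. In shMCM7 Dox cells the levels were 39.1 ± 1.81 CPM per kb for WWTR1, 28.3 ± 0.915 for YAP1, 19.8 ± 1.46 for TEAD4, 16.7 ± 1.62 for TEAD1, 5.70 ± 0.311 for TEAD3 and 2.76 ± 0.447 for TEAD2. The order of the first 4 was the same in both groups, with WWTR1 and YAP1 nearer to each other in the knock-down libraries.

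**Figure D3:**
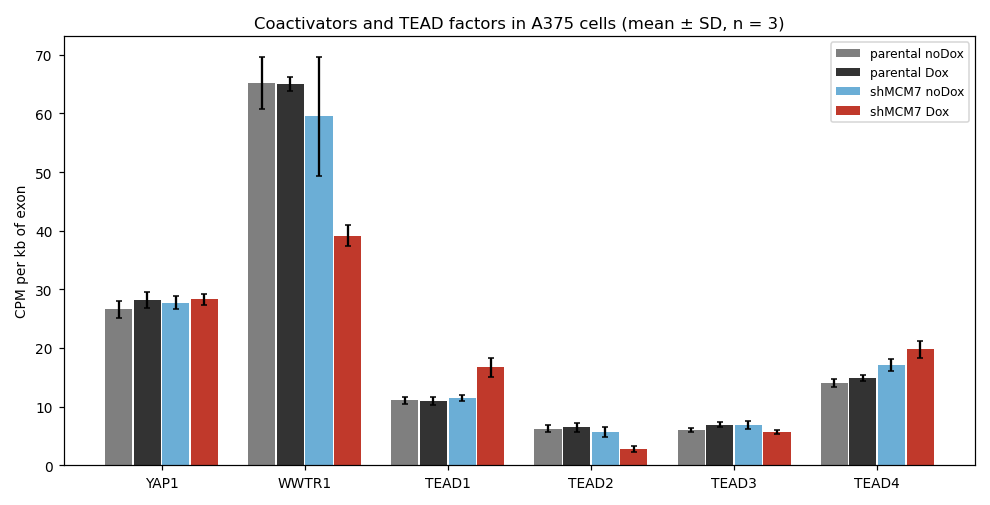
Levels per length (CPM per kb of exon, axis from 0) of YAP1, WWTR1 and the 4 TEAD factors in the 4 A375 groups, as mean ± SD (n = 3). WWTR1 is at 39.1 in shMCM7 Dox cells and at 59.5 to 65.2 in the other groups.

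Other genes of the pathway, from lists that do not hold the 10 genes, were tested in the A375 shMCM7 comparison. The lists were chosen with earlier results of these same libraries known, so their counts are not independent of the choice of the pathway. The first list is the 17 remaining genes of a 22-gene YAP/TAZ target signature. All 17 were tested, 4 rose, 0 fell and 13 were not called, against a share of 5.58% of all genes called higher. The median log2 fold change of the list was 0.36, against 0.00 for all genes, and 16 of the 17 had a value above 0. With noDox replicate 1 left out 4 were again called higher.

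AXL, a receptor tyrosine kinase, was at 507, 544 and 632 CPM with Dox and at 354, 313 and 322 CPM without in shMCM7 cells, up-regulated by 0.77 ± 0.08 (log2, SE; edgeR FDR = 0.000163). FJX1, a Golgi-associated protein, was at 34.7, 26.9 and 29.2 CPM with Dox and at 16.6, 14.3 and 14.7 CPM without, up-regulated by 1.00 ± 0.10 (edgeR FDR = 9.62e-05). NT5E, the ectonucleotidase CD73, was at 91.6, 91.8 and 94.2 CPM with Dox and at 56.9, 58.1 and 64.4 CPM without, up-regulated by 0.63 ± 0.06 (edgeR FDR = 7.84e-05). The groups did not overlap for any of these 3 genes, and the share of all genes that separate in this way was not counted.

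TGFB2, a ligand of the TGF-beta family, was low, at 2.99, 3.59 and 4.24 CPM with Dox and at 1.21, 1.51 and 2.11 CPM without, and rose by 1.16 ± 0.20 (log2, SE; edgeR FDR = 0.00168). PTPN14, a phosphatase that binds YAP, and DOCK5, an exchange factor for Rac, had FDR of 0.000499 and 0.000441 by edgeR but folds of 1.45 and 1.38, under the threshold. The smallest values were those of MYOF (0.04 ± 0.06) and GADD45A (-0.01 ± 0.14).

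In parental A375 cells none of the 17 was called with Dox, and their median was 0.08. For the difference of the Dox effects 4 were called higher and 0 lower, against 10.5% of all genes called (4.37% higher and 6.17% lower): FJX1, TGFB2, NT5E and AXL. The call of AXL was lost without shMCM7 Dox replicate 3 (0.56), and that of TGFB2 without the same library (0.87) or parental noDox replicate 3 (0.86). Without Dox, 0 of the 17 were called between shMCM7 and parental A375 cells, 13 of 17 had a value above 0 and the median was 0.18, against 0.00 for all genes. F3 (tissue factor), with 0.54 ± 0.09, and NUAK2, with 0.51 ± 0.06, came nearest, with edgeR FDR of 0.0145 and 0.00139 and folds under 1.5.

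**Figure D4:**
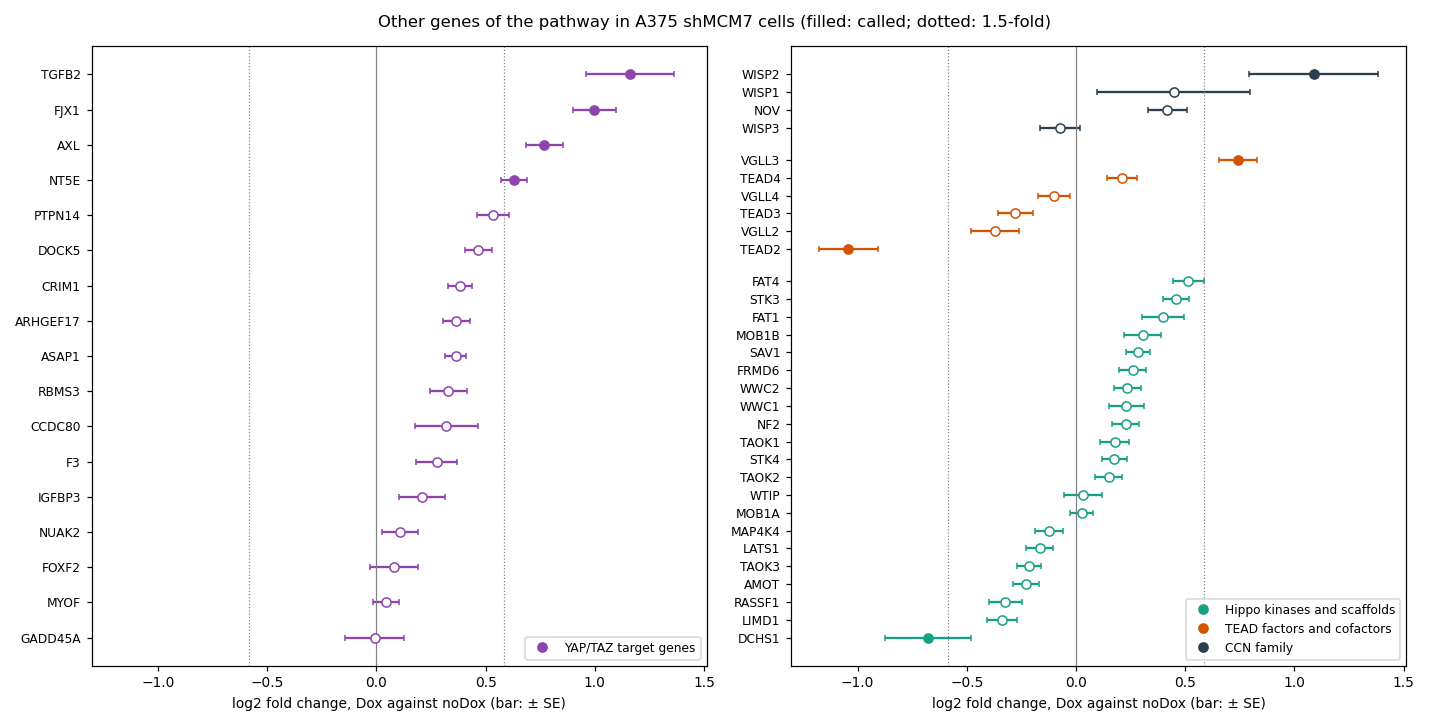
Log2 fold changes (bars ± SE) of 48 further genes of the pathway for Dox against noDox in A375 shMCM7 cells, by list. Filled points are called genes and dotted lines the 1.5-fold threshold. Of the target genes TGFB2, FJX1, AXL and NT5E pass, while of the Hippo kinases and scaffolds only DCHS1 does, on the lower side.

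The second list holds 21 Hippo kinases, scaffolds and upstream regulators, all tested. None rose, 1 fell and 20 were not called, against shares of 5.58% of all genes called higher and 6.45% called lower. The median of the list was 0.18. The gene that fell, the protocadherin DCHS1, was at 1.65, 1.93 and 2.59 CPM with Dox and at 2.73, 2.97 and 4.16 CPM without, down-regulated by 37.4% (edgeR FDR = 0.0211). Its call was lost without Dox replicate 1 (-0.53), Dox replicate 2 (-0.64) or noDox replicate 3 (-0.46). In the difference of the Dox effects DCHS1 was not called (-0.87 ± 0.34; edgeR FDR = 0.065), and it was with the replicate block (FDR = 0.00013).

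The kinase STK3 differed by 0.46 ± 0.06 (log2, SE; edgeR FDR = 0.000365) and the protocadherin FAT4 by 0.51 ± 0.07 (edgeR FDR = 0.000479), both with folds under 1.5. LATS1, the partner of LATS2, differed by -0.17 ± 0.06 (edgeR FDR = 0.0578), and AMOT, the remaining motin, by -0.23 ± 0.06 (edgeR FDR = 0.0132). The differences of the kinases and scaffolds thus went in both directions, 14 of 21 above 0.

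Of the 3 other TEAD factors and the 4 vestigial-like cofactors, 6 of 7 were tested (VGLL1 did not pass the filter), and 1 rose and 1 fell. The shares over all genes were 5.58% called higher and 6.45% called lower. TEAD2 was at 7.22, 7.74 and 9.75 CPM with Dox and at 14.3, 17.1 and 19.5 CPM without, down-regulated by 51.4% (log2 -1.04 ± 0.13; edgeR FDR = 0.000356), opposite in sign to the value of TEAD1. VGLL3, a cofactor that binds TEAD factors, was at 6.05, 6.87 and 6.64 CPM with Dox and at 4.03, 3.80 and 3.88 CPM without, up-regulated by 0.74 ± 0.09 (edgeR FDR = 0.000227). In the difference of the Dox effects VGLL3 was called higher, at the fold threshold and with the call lost in 6 of 12 refits with 1 library removed, and TEAD2 and VGLL2 were called lower. There 4.37% of all genes were called higher and 6.17% lower. TEAD3 (-0.28 ± 0.08) and TEAD4 (0.21 ± 0.07) were not called. VGLL2 was not called either (-0.37 ± 0.11), but it was called higher in uninduced shMCM7 than in parental cells, at 2.99, 3.10 and 2.67 against 1.54, 1.57 and 1.06 CPM (1.06 ± 0.15; edgeR FDR = 0.00481).

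Of the 4 CCN family genes beside CTGF and CYR61, only WISP2 was called, higher by 1.09 ± 0.30 (log2, SE; edgeR FDR = 0.0156), while 5.58% of all genes were called higher. It was very low, at 0.275, 0.233 and 0.273 CPM with Dox and at 0.138, 0.167 and 0.0695 CPM without. Over the 12 A375 libraries WISP2 had 9 to 80 counts. Its call was lost without Dox replicate 1 (1.05), Dox replicate 3 (1.06) or noDox replicate 3 (0.78). NOV had a value of 0.42 ± 0.09 (edgeR FDR = 0.00436), under the fold threshold.

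Across the 12 A375 libraries, the gene whose pattern was most like that of CTGF was NEXN, an actin-binding protein, followed by RGS7, SH2D5, MYPN and EVA1A. Likeness was the root mean square difference between the centred log2 CPM of 2 genes, over 11451 genes, and was 0.16 for NEXN. For CYR61 the nearest were MAPK13 (0.14), PODXL, ALPK2, SUSD2 and DHRS2. CYR61 ranked 45th in likeness to CTGF, and CTGF 22nd in likeness to CYR61. WWTR1 ranked 11128th and 11108th, near the end of both lists.

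In A549, compared by label, the log2 differences of the 10 genes between shMCM7 Dox and noDox ran from -0.13 ± 0.34 (SE) for CTGF to 0.18 ± 0.23 for ANKRD1. Of all genes 0% were called (0 of 13550 by edgeR and by DESeq2, where 61 and 51 genes respectively had p below 0.05 before adjustment), and none of the 17 other target genes of the signature. In parental A549 cells the differences by label ran from -0.53 ± 0.24 for CYR61 to 0.06 ± 0.13 for AMOTL1. There too 0% of all genes were called (0 of 13494 by edgeR, where 1137 had p below 0.05 before adjustment, and 9 by DESeq2). The 3 libraries low in MCM7 carry 3 different labels, so these comparisons say little about MCM7 knock-down.

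Library by library, CTGF was at 47.6 CPM in the A549 library labelled shMCM7 Dox replicate 3, at 57.2 CPM in shMCM7 noDox replicate 2 and at 59.4 CPM in parental noDox replicate 2, the 3 with MCM7 near 100 CPM or below, and at 24.6 to 40.9 CPM in the other 9. CYR61 was at 210.0, 220.6 and 220.5 CPM in the same 3 libraries and at 89.9 to 122.8 CPM in the other 9. These are the values by which the genes were chosen, and no mean or test was computed over libraries split by MCM7.

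The coactivators and TEAD1 also stood apart in those 3 libraries, and the share of all genes that did so was not counted. WWTR1 was at 186.7, 178.4 and 196.3 CPM there and at 244.4 to 295.5 CPM in the other 9. TEAD1 was at 398.5, 369.3 and 397.5 CPM and elsewhere at 237.1 to 291.2 CPM. YAP1, whose values overlapped between the A375 groups, was at 147.5, 148.7 and 165.0 CPM and elsewhere at 92.7 to 109.5 CPM.

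AMOTL1 was at 95.3, 79.2 and 83.7 CPM in these libraries and at 59.6 to 76.9 CPM in the other 9. For AMOTL2 the values were 170.9, 165.8 and 149.7 CPM, the last of them within the range of 119.6 to 151.0 CPM of the other 9. ANKRD1, at 38.1, 29.5 and 34.6 CPM, overlapped the other libraries, which held 18.9 to 32.9 CPM. LATS2 lay between 20.1 and 22.3 CPM and AJUBA between 123.6 and 153.2 CPM over all 12 A549 libraries.

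**Figure D5:**
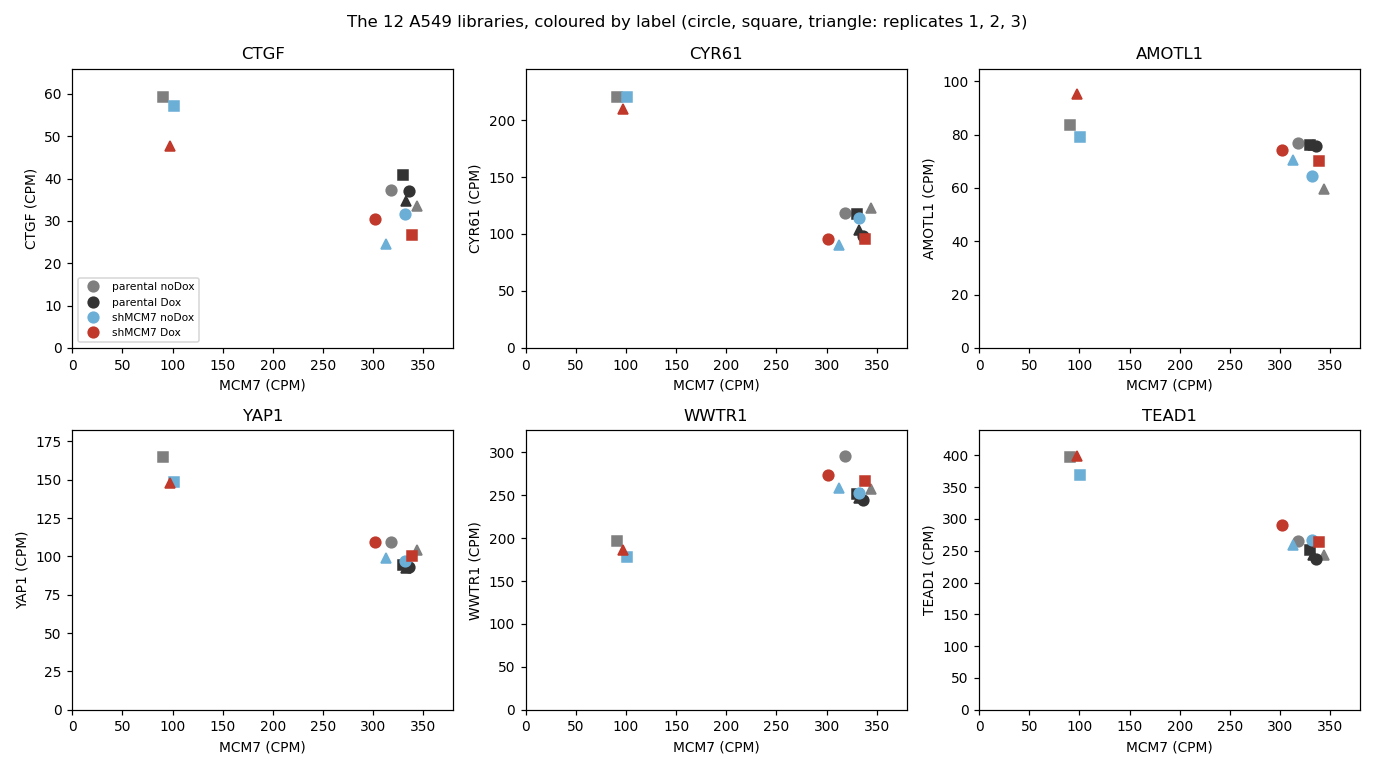
Levels (CPM, linear axes from 0) of 6 of the genes against MCM7 in each of the 12 A549 libraries, coloured by label. In the 3 libraries with MCM7 at 90.7 to 100.9 CPM, which carry 3 different labels, CYR61 is at 210.0 to 220.6 CPM and WWTR1 at 178.4 to 196.3 CPM.

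The last comparison set the parental A375 libraries against the parental A549 libraries, 6 of each. Differences are given as A375 minus A549 (log2, SE). AMOTL1 stood 2.10 ± 0.07 higher in A375, a 4.28-fold difference, CTGF 0.65 ± 0.15 and YAP1 0.61 ± 0.12. WWTR1 was 2.12-fold higher in A375. TEAD1 differed by -1.32 ± 0.10, AJUBA by -1.16 ± 0.06, CYR61 by -0.79 ± 0.17 and ANKRD1 by -0.70 ± 0.17. AMOTL2 (-0.04 ± 0.05) and LATS2 (0.38 ± 0.05) lay closer to 0. Without the library labelled A549 parental noDox replicate 2, low in MCM7, the differences were -0.57 for CYR61, -0.56 for ANKRD1 and 0.84 for CTGF.

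Of the 17 other target genes of the signature 4 were called higher in A375 (F3, GADD45A, PTPN14 and RBMS3), 11 lower and 2 were not called (AXL and NT5E), while 59.5% of all genes were called between the lines (31.5% higher and 28% lower in A375). The line and the depth of its libraries cannot be told apart in this comparison.

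Per length of exon, TEAD1 was at 23.1 to 38.8 CPM per kb over the A549 libraries and at 10.3 to 18.4 CPM per kb over the A375 libraries, with no overlap. WWTR1 was at 21.2 to 35.1 CPM per kb in A549 and at 37.6 to 68.6 CPM per kb in A375. In A549 TEAD1 and WWTR1 thus covered overlapping ranges, whereas in A375 every WWTR1 value lay above every TEAD1 value.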

How the data were processed

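Total RNA from 24 cultures of A375 and A549 cells was sequenced, and the authors trimmed the reads with Trimmomatic, aligned them with STAR 2.7.1 to GRCh38.p10 and counted them per gene with featureCounts. The deposited values are raw counts per gene and library, without normalization. Whether counting used strand is not given in the sources used here. The 10 genes and all gene lists were chosen with earlier results of these data known. Each comparison was fitted on all genes with edgeR 4.0.16 (R 4.3.3): library sizes by trimmed mean of M values, low counts filtered by filterByExpr, and the quasi-likelihood test with Benjamini-Hochberg adjustment. A gene was called at a fold of at least 1.5, p under 0.01 and FDR under 0.05. The procedure was run on simulated independent libraries, which held no pairing of same-numbered libraries and no outlying library, so that run does not cover these features of the data. Named genes were the 10 genes, MCM7, every list gene called in A375 shMCM7 Dox against noDox, list genes needed for a count of 5 or fewer, and the 5 genes (mean of at least 5 CPM, prior count 2) most like CTGF and CYR61. Other list genes were named after their values were seen. Same-numbered libraries deviated together between shMCM7 Dox and noDox in A375 (r = 0.344, 0.214 and 0.362) and between shMCM7 and parental noDox (r = 0.544 to 0.574). They therefore count as pairs in those comparisons, from the data alone. The SE, FDR and shares of called genes nevertheless come from fits without the replicate block, except where the block is named. Alternatives were DESeq2 1.42.0 (Wald test and size factors), other filters, a prior count of 10, leaving out each library and the replicate block. Gene positions and exon lengths came from GENCODE, in which 21349 of the 21386 gene identifiers were found.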

Additional observations from a re-analysis of the deposited data

Results flagged for a closer look

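For 7 genes of the pathway the effect of Dox differed between A375 shMCM7 cells and parental A375 cells by a test of the difference itself (edgeR, all 12 A375 libraries). Of the 17 target genes 4 were called higher, and of the 6 TEAD factors and cofactors tested 1 higher and 2 lower. None of the 21 kinases and scaffolds or the 4 other CCN genes was called. Over all genes 10.5% were called in this test (4.37% higher and 6.17% lower). The Dox effect in shMCM7 cells minus that in parental cells was 1.01 (log2) for FJX1, 1.00 for TGFB2, 0.69 for NT5E, 0.65 for AXL and 0.59 for VGLL3. It was -1.09 for TEAD2 and -0.91 for VGLL2. In parental cells VGLL2 was at 2.16, 2.05 and 1.88 CPM with Dox and at 1.54, 1.57 and 1.06 CPM without, while in shMCM7 cells it was at 2.45, 2.09 and 2.21 CPM with Dox and at 2.99, 3.10 and 2.67 CPM without. The call for VGLL3 lay at the fold threshold and was lost in 6 of 12 refits with 1 library removed. The call for TGFB2 was lost without shMCM7 Dox replicate 3 (0.87) or parental noDox replicate 3 (0.86), and that for AXL without shMCM7 Dox replicate 3 (0.56).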

How the results depend on the processing

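In the A375 shMCM7 comparison the 10 genes moved by less than the spread between replicates under every alternative run, and no called result changed direction. AMOTL1, at -0.01, was at 0.02 without Dox replicate 1. Over the fits without 1 library the differences (log2) were 0.71 to 0.97 for CTGF, 0.96 to 1.14 for CYR61, 0.07 to 0.49 for ANKRD1, 0.47 to 0.61 for TEAD1 and -0.74 to -0.52 for WWTR1. The replicate block gave 335 genes called higher and 149 lower between uninduced shMCM7 and parental A375 cells, against 189 and 77. Leaving out single libraries gave 134 to 256 higher and 39 to 66 lower there, fewest lower without parental noDox replicate 2 (39), parental noDox replicate 3 (40) or shMCM7 noDox replicate 2 (50). In parental A375 cells, where the numbers did not pair the libraries (r = 0.301, -0.125 and 0.554), 12 genes were called higher with the block and 2 by DESeq2, against 0, and leaving out single libraries gave 0 to 1. In parental A549 cells DESeq2 called 9 genes higher, and leaving out single libraries gave 0 to 300, the highest without parental noDox replicate 3. In A549 the same-numbered libraries did not pair either, and the block called 0 genes in both comparisons. The Hippo kinase and scaffold genes called lower numbered 0 to 1. Apart from DCHS1, the block changed no call of a named gene. The causes were not tested. With 3 libraries a group, differences under 1.5-fold were not called whatever their FDR, and the depth of the A549 libraries limits low genes more than that of the A375 libraries.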
